A study of Mus musculus with 4 samples.

Results

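Heat shock and chaperone genes were examined in single-cell RNA-Seq of whole mouse kidney as 10 genes matched by symbol, out of 32285 genes listed in each library. Hspa1a, Hspa1b, Hsp90aa1, Hspb1, Dnajb1, Hsph1, Hspa8, Hspa5, Cryab and Hspe1 were all found, each under 1 identifier. The kidneys came from male C3H mice aged 18 weeks, and each of the 4 conditions was 1 library: WT mice on a normal diet (WT-ND), WT mice on a high-fat diet (WT-HFD), Sweet Pee mice on the normal diet (SP-ND) and Sweet Pee mice on the high-fat diet (SP-HFD). Sweet Pee mice, labelled MT, carry a missense mutation of Slc5a2, which encodes the glucose transporter SGLT2, in every cell and not only in the kidney. HFD had 60% of calories from fat and was fed for 8 weeks from the age of 10 weeks. How many mice went into a library is not given in the sources used here. With 1 library per condition no difference between conditions could be tested, no p-value is given, and every interval covers counting error only.

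Chaperones bind unfolded proteins and help them to fold, to be refolded or to be degraded. When unfolded proteins build up in the cytosol, the transcription factor HSF1 binds heat shock elements and switches on inducible chaperones such as Hspa1a, Hspa1b, Dnajb1 and Hspb1, whereas stress of the endoplasmic reticulum raises Hspa5 through the unfolded protein response. In the kidney the inner medulla is known for high levels of small heat shock proteins and organic osmolytes, and enzymatic dissociation of tissue at a warm temperature is known to induce heat shock and early response genes. Kidneys of all 4 libraries were dissociated by successive digestions at 37°C.

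Promoter sequence is shown for the members that carried a heat shock element or an endoplasmic reticulum stress element, because HSF1 and the unfolded protein response are known to act through these elements. RefSeq promoters (build GRCm38.p6) were matched for 7 of the 10 members, and those of Hsp90aa1, Hspa8 and Cryab were not. The lines give the 150 bases before the annotated start, 5′ to 3′ on the gene's strand, with matches to either motif in capitals. They lie at chr17:34972157-34972306 (minus strand) for Hspa1a, chr17:34959239-34959388 (minus strand) for Hspa1b, chr5:135887769-135887918 (plus strand) for Hspb1, chr5:149636337-149636486 (minus strand) for Hsph1, chr1:55087998-55088147 (plus strand) for Hspe1 and chr2:34771940-34772089 (plus strand) for Hspa5.
Hspa1a: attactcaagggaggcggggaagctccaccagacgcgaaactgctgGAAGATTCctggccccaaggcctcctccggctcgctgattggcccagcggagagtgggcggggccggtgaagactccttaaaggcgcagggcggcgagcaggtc
Hspa1b: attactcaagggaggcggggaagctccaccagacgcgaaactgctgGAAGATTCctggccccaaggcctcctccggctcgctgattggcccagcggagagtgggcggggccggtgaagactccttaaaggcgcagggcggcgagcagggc
Hspb1: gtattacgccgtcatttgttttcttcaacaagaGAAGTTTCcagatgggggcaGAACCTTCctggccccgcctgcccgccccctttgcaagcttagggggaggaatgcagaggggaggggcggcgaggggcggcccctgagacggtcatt
Hsph1: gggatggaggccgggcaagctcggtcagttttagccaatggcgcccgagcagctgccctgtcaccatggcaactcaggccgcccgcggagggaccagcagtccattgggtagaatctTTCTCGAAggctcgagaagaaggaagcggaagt
Hspe1: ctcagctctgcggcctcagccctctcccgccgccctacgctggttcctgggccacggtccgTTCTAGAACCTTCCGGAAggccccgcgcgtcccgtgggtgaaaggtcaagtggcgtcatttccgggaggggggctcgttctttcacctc
Hspa5: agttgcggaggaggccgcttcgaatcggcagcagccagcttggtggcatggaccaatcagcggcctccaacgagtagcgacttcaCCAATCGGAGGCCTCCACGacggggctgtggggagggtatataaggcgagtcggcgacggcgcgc
Heat shock elements were searched in the 250 bases before each start as GAANNTTC or TTCNNGAA, each of which reads the same on both strands, and in the longer form GAANNTTCNNGAA on both strands, whose matches contain matches of the shorter form. The short form was present in 12.8% of all 32851 promoters and the long form in 0.466%. Hspe1 held 2 overlapping long forms between 89 and 72 bases before its start. Hspa1a and Hspa1b each held 1 short form, beginning 104 bases before the start, and their 250 bases were identical at 247 positions. Hspb1 held 2 short forms and Hsph1 1, and neither start annotated for Dnajb1 had one in this window. The endoplasmic reticulum stress element, searched as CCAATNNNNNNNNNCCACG on both strands, was present in 0.113% of promoters, and Hspa5 carried 1, beginning 65 bases before its start. A match is a description of the sequence and not a measured binding site.

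Because the kit reads the 3′ end of the RNA, the last 500 bases of each member's longest coding transcript (GENCODE M21) were compared with all other genes in windows of 91 bases. None of 410 windows was shared for Hspa1a, Hspa1b, Hsp90aa1, Dnajb1, Hsph1, Hspa5 or Cryab. For Hspa8, 79.8% of windows occurred in other genes, all of them in 7 predicted Gm loci, and for Hspe1 35.9% were shared, so the counts of these members may depend on how reads matching several places were assigned. Hspb1 shared 6.83% of its windows with the pseudogene Hsp25-ps1. Hspa1a and Hspa1b are near-identical in their coding parts, and their sum is given beside them below.

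After filtering, 9924, 8947, 6389 and 7020 cells were kept in the libraries as listed above, with 43510181 to 63551055 UMIs per library. They were clustered without the members and without the chaperone and early response genes listed below. Levels are CPM, the UMIs of a gene per 1000000 UMIs of the pooled cells, mitochondrial UMIs included. In all, 14 cell classes were named from marker genes, every marker was higher in its class than in the rest of the same library, and 11 classes had at least 50 cells in every library. Slc5a2 itself was at 316 and 263 CPM in proximal tubule cells of WT-ND and WT-HFD and at 57.4 and 101 CPM in SP-ND and SP-HFD. Libraries shared 54 to 77 cell barcodes per pair, at most 0.522% of the smaller library. Barcodes with at least 50% mitochondrial UMIs, which were not kept, made up 32.7% to 49.8% of a library, and kept cells had 23.6% to 29.4% mitochondrial UMIs. A cluster of HFD-associated proximal tubule cells was sought as the one highest in 8 markers of them. Only clusters with at least 1% of cells and proximal tubule markers above the other cells were considered. The chosen cluster had mean log2 ratios to the other cells of -0.11 for the 8 markers and 0.01 for proximal tubule markers. Its identity is thus not settled by them. It held 1606 cells in WT-HFD and 25 to 82 in the other libraries, and it was counted among all kept cells but not as a class.

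Over all kept cells, each of the 10 members was higher on HFD than on ND in both genotypes, though Hsp90aa1 in WT had a counting interval that included 0. Hspa8, the constitutive cytosolic Hsp70, was at 860 CPM in WT-ND and 1152 CPM in WT-HFD, and at 747 CPM in SP-ND and 1216 CPM in SP-HFD. Cryab, a small heat shock protein, was at 254, 499, 344 and 586 CPM in the same order. Dnajb1, the Hsp40 partner that delivers unfolded proteins to Hsp70, was at 55.2, 100.5, 54.4 and 109.6 CPM. In each of these genes both HFD libraries lay above both ND libraries. The share of all genes with this order of libraries is not given, here or below, so the order is not read as particular to the members.

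The same order of diets held for Hspa5, the Hsp70 of the endoplasmic reticulum, at 318, 433, 328 and 460 CPM. It also held for Hsph1, the Hsp110 exchange factor of Hsp70, at 58.0, 74.3, 64.8 and 94.2 CPM. The mitochondrial co-chaperonin Hspe1, the partner of Hspd1, was at 316, 411, 306 and 351 CPM. Again the highest ND library lay below the lowest HFD library in each of these genes.

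The remaining members differed in how far the diets lay apart. Hspb1, the small heat shock protein Hsp25, was at 203, 267, 261 and 325 CPM, so that SP-ND lay close to WT-HFD. The inducible Hsp70 genes Hspa1a and Hspa1b together were at 555, 767, 699 and 775 CPM. Hspa1a alone was at 276, 409, 345 and 400 CPM and Hspa1b at 279, 358, 354 and 375 CPM. In Hspa1a, as in Hspa1b and Hspb1, both HFD libraries lay above both ND libraries, and for Hspa1b and Hspb1 the ranges nearly touched. Hsp90aa1, the inducible cytosolic Hsp90, was at 551 and 553 CPM in the WT libraries and at 622 and 701 CPM in the SP libraries, and in it the order followed the genotype and not the diet.

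**Figure D1:**
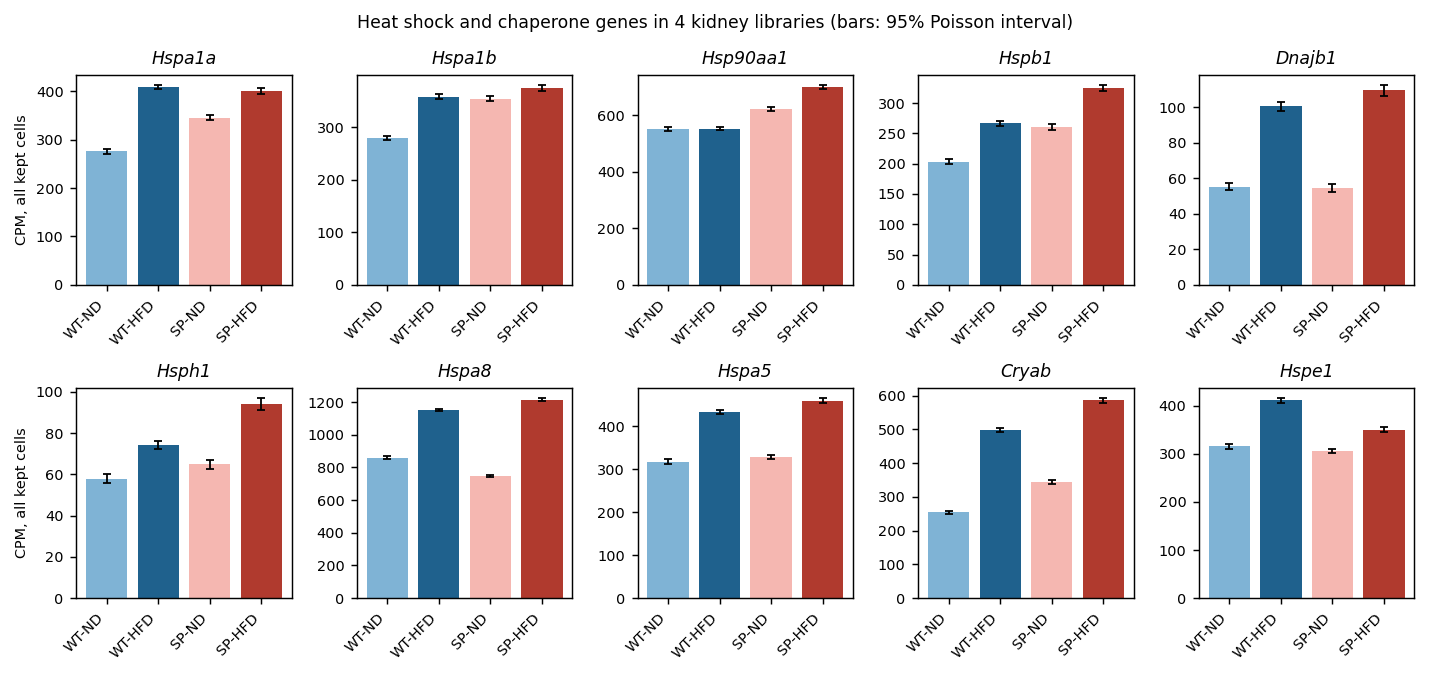
Each panel plots 1 member's pooled level (CPM, linear axis from 0) over all kept cells of each library, and error bars are 95% Poisson intervals for counting error. Dnajb1 stood at 55.2 and 54.4 CPM on ND and at 100.5 and 109.6 CPM on HFD, while Hsp90aa1 was nearly level between the WT libraries.

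In WT mice, Cryab (log2 ratio 0.98, 95% counting interval 0.95 to 1.00) and Dnajb1 (0.86, 0.80 to 0.93) were at least 1.5-fold higher on HFD, that is 2 of 10 members, where 3.08% of the 8159 genes with a mean of at least 10 CPM were. In SP mice, Dnajb1 (1.01, 0.94 to 1.08), Cryab (0.77, 0.74 to 0.80) and Hspa8 (0.70, 0.68 to 0.72) passed that fold, that is 3 of 10 members against 4.07% of 8482 genes. No member was 1.5-fold lower, against 2.92% of genes in WT and 2.68% in SP. The members had a median log2 ratio of 0.41 in WT and 0.40 in SP, beside -0.01 and 0.06 over all genes. A ratio above 0 was found for 10 of 10 members in each genotype, beside 47.6% and 60.9% of all genes. In SP mice this depended on the cells counted: with cells under 30% mitochondrial UMIs only, Hspa1a, Hspa1b and Hspb1 were lower on HFD (-0.26, -0.36 and -0.14). With each class weighted equally Hspa1a and Hspa1b were lower (-0.25 and -0.47) and none of the members was 1.5-fold higher, and Hspa1b was also lower with mitochondrial UMIs left out of the total (-0.03) and as a mean over cells (-0.12). The Cryab ratio in SP was 0.11 without thin limb cells, which made up 1.83% of kept cells in SP-ND and 2.79% in SP-HFD. In WT mice Hsp90aa1 was at 0.00, and went to -0.02 with mitochondrial UMIs left out of the total.

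Proximal tubule cells had the lowest mean level of all classes for Hspa1a, Hspa1b, Hsp90aa1, Hspb1, Dnajb1 and Cryab. They made up 21.2% of kept cells in WT-ND and 11.9% in WT-HFD, and 14.3% in SP-ND and 7.92% in SP-HFD. Apart from weighting each class equally, the part of these shares in the levels over all kept cells was not tested. Levels over all kept cells mix the level within each class with the share of each class, so each member was next followed within classes. A member was taken as shifted across a whole library if it moved in 1 direction in every class tested, in at least 6 classes, with a median over classes of at least 1.5-fold; a class was tested with at least 50 cells in both libraries and at least 20 UMIs of the gene. A value at least 2-fold away from the member's own median over classes was taken as particular to a class.

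Hspa8 was higher on HFD in every class tested in both genotypes. In WT mice it was higher in 12 of 12 classes, with log2 ratios of 0.20 in collecting duct principal cells to 0.55 in proximal tubule cells and a median of 0.42, which did not reach 1.5-fold. In SP mice it was higher in 12 of 12 classes, from 0.23 in T or NK cells to 1.09 in proximal tubule cells, with a median of 0.62. Hspa8 was thereby the only member shifted across the whole library in SP mice, where 0.528% of 9854 genes were shifted upward. With mitochondrial UMIs left out of the total it was still higher in 12 of 12 classes, but its median of 0.57 was just under 1.5-fold and no member then passed. Proximal tubule cells went from 930 to 1366 CPM in WT and from 768 to 1635 CPM in SP, and endothelial cells from 1124 to 1361 CPM and from 1115 to 1592 CPM. The WT-ND level of Hspa8 was above that of SP-ND in 11 of 12 classes.

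Hspa8 also differed from the other members in how its spread was divided. Over 11 classes and 4 libraries, on the log2(CPM + 10) scale, differences between classes took 82.3% of its spread, and the library took 88.7% of what was left within classes. The library share of the spread within classes was 66.6% for Hspe1, 51.0% for Cryab, 45.5% for Hspb1, 43.8% for Hsph1 and 39.0% for Dnajb1. It was 24.2% for Hspa1a, 21.6% for Hspa5, 17.6% for Hsp90aa1 and 11.4% for Hspa1b, beside a median of 18.0% over all genes. The members thus ran from Hspa8 and Hspe1, whose classes moved mostly together with the library, to Hspa1b, which lay below the median over all genes. Hsp90aa1 was near that median.

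Hspe1 was higher on HFD in 11 of 12 classes in WT and in 10 of 11 in SP, with medians of 0.41 and 0.43. Its largest value was in T or NK cells of WT mice, at 461 CPM on ND and 1030 CPM on HFD. Hsph1 was higher in 11 of 12 classes in WT and in 7 of 11 in SP. Neither reached a median of 1.5-fold over classes in either genotype.

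**Figure D2:**
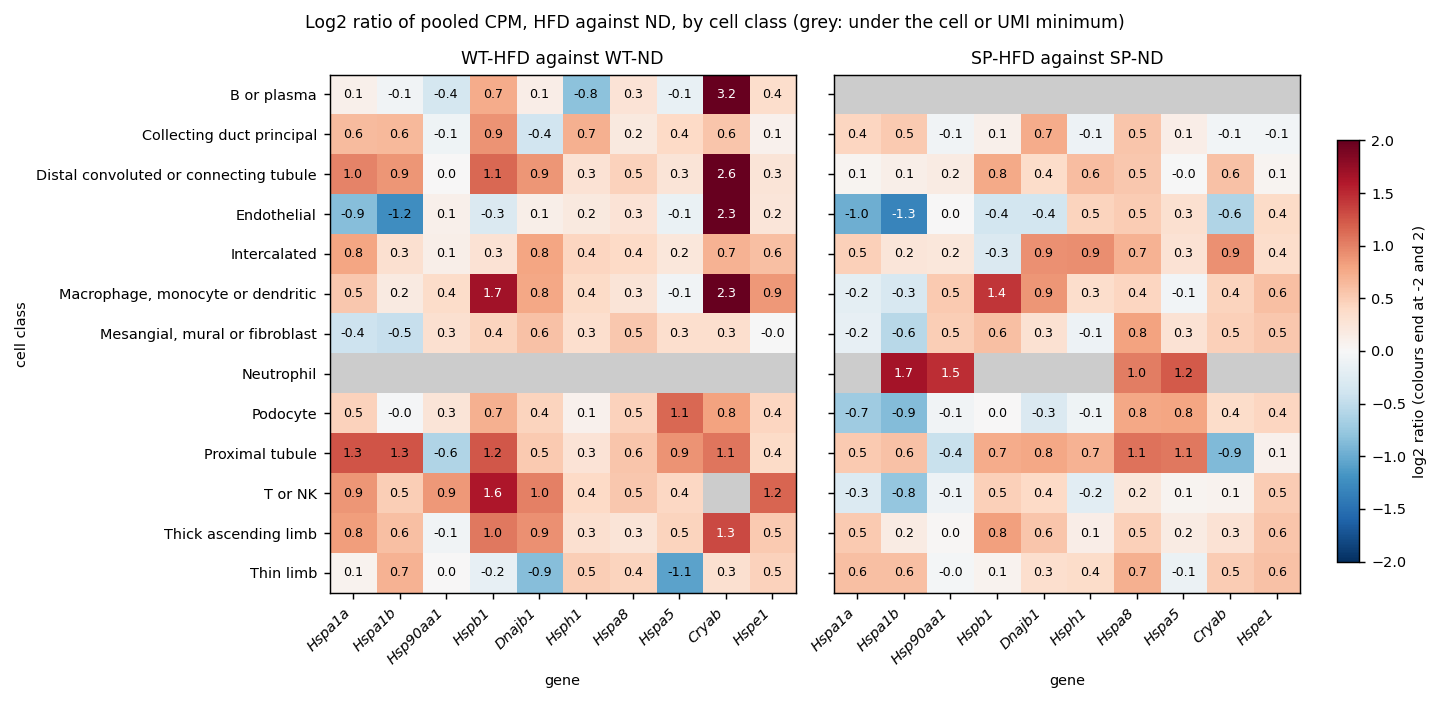
Colours and printed values give the log2 ratio of pooled CPM, HFD against ND, for each member (columns) and cell class (rows) in WT (left) and SP (right); grey fields had under 50 cells in a library or under 20 UMIs. The column of Hspa8 is positive in every class of both panels, and endothelial cells are negative for Hspa1a and Hspa1b in both.

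Endothelial cells were lower on HFD for the inducible Hsp70 genes in both genotypes. Most classes went the other way in WT, while the classes of SP were more evenly divided. Endothelial Hspa1a was at 1376 CPM in WT-ND and 760 CPM in WT-HFD, and at 1501 CPM in SP-ND and 762 CPM in SP-HFD. Hspa1b was at 1134 and 478 CPM in WT and at 1211 and 487 CPM in SP. Both HFD libraries lay below both ND libraries, and the log2 ratios were -0.86 and -0.98 for Hspa1a and -1.25 and -1.31 for Hspa1b.

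In WT mice Hspa1a was higher on HFD in 10 of 12 classes, with a median of 0.58 over the 12, and the other class in which it was lower was mesangial, mural or fibroblast cells, at 1078 and 810 CPM. In SP mice it was higher in 6 of 11 classes, and podocytes were, with endothelial cells, among those with a lower level, at 980 and 600 CPM for Hspa1a and 1031 and 566 CPM for Hspa1b. The diet ratio of endothelial cells was at least 2-fold away from the median over classes for both genes in both genotypes. In SP the Hspa1b ratios of podocytes (-0.86) and neutrophils (1.66) were also that far away. Endothelial Hspb1 was at 1974 and 1615 CPM in WT and at 2322 and 1795 CPM in SP. Pooled over the class it too was lower on HFD in both genotypes, but not in every endothelial cluster, as given below. Endothelial Hspa8 and Hspe1, pooled over the class, were higher on HFD in both. Both genes also had ratios above 0 in the clusters led by Slc14a1 and Esm1, described below. In the cluster led by Ehd3, Hspa8 was at 0.01 in SP and Hspe1 at -0.02 in WT and 0.03 in SP. The intervals of these values included 0.

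Within each genotype detection was lower on HFD, as the level was. With every endothelial cell thinned to 1000 UMIs, Hspa1a was found in 49.9% of cells of WT-ND (95% Clopper-Pearson interval 46.3% to 53.6%) and 32.5% of WT-HFD (29.0% to 36.1%). In SP-ND it was found in 41.1% (37.5% to 44.7%) and in SP-HFD in 34.2% (31.3% to 37.3%), so SP-ND had the highest level but not the highest share. Thinning left out 28 to 124 endothelial cells per library with fewer UMIs, and unthinned the shares were 60.0%, 54.6%, 49.5% and 53.5% at median depths of 2158, 3558, 2404 and 2831 UMIs. In proximal tubule cells, where Hspa1a was near its lowest level, 1.10% to 3.94% of thinned cells had a UMI.

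The endothelial class joined 4 clusters that differed in this. In the cluster led by Ehd3, Gata5 and Sost, Hspa1a was at 1303 CPM in WT-ND and 395 CPM in WT-HFD, and at 2139 and 457 CPM in SP-ND and SP-HFD. In the cluster led by Slc14a1, Fbln2 and Fbln5 it was at 1659 and 1122 CPM in WT and at 1678 and 885 CPM in SP. In the cluster led by Esm1, Plvap and Igfbp3 it was at 1146 and 930 CPM in WT and at 928 and 943 CPM in SP, where the ratio of 0.02 had a counting interval of -0.10 to 0.15. The lower level on HFD was thus mainly in the first and second of these clusters, while Hspa1b was lower on HFD in all 3, with ratios of -0.43 to -2.46. The fourth cluster, led by Ccl21a, Pf4 and Ctla2b, held 14 to 44 UMIs of Hspa1a per library, and its ratios of 0.27 and 0.22 had intervals that included 0. Hspb1 was lower on HFD in the clusters led by Ehd3 (-0.93 in WT and -1.34 in SP) and Slc14a1 (-0.21 and -0.50). In the cluster led by Esm1 it was higher (0.23 in WT and 0.70 in SP), and in that led by Ccl21a the intervals included 0.

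Early response genes were also lower on HFD in endothelial cells. The summed level of 23 genes known to respond to dissociation, such as Fos, Jun and Egr1, was 9186 and 6337 CPM in endothelial cells of WT-ND and WT-HFD, and 10953 and 5795 CPM in those of SP-ND and SP-HFD. In podocytes, in the same order, the sum was 7450, 10100, 10100 and 7358 CPM, and podocyte Hspa1a was at 802, 1100, 980 and 600 CPM. In thin limb cells the sum was 23099, 9378, 16944 and 11699 CPM, lower on HFD in both genotypes, while Hspa1a there was at 422, 444, 360 and 549 CPM, with the highest SP diet ratio of any class (0.61). The sum was also lower on HFD in both genotypes in thick ascending limb, intercalated and mesangial, mural or fibroblast cells. It was higher in both in proximal tubule cells and in macrophages, monocytes or dendritic cells, and mixed in the other classes compared. The part of the early response genes in the Hspa1a and Hspa1b values was not tested.

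**Figure D3:**
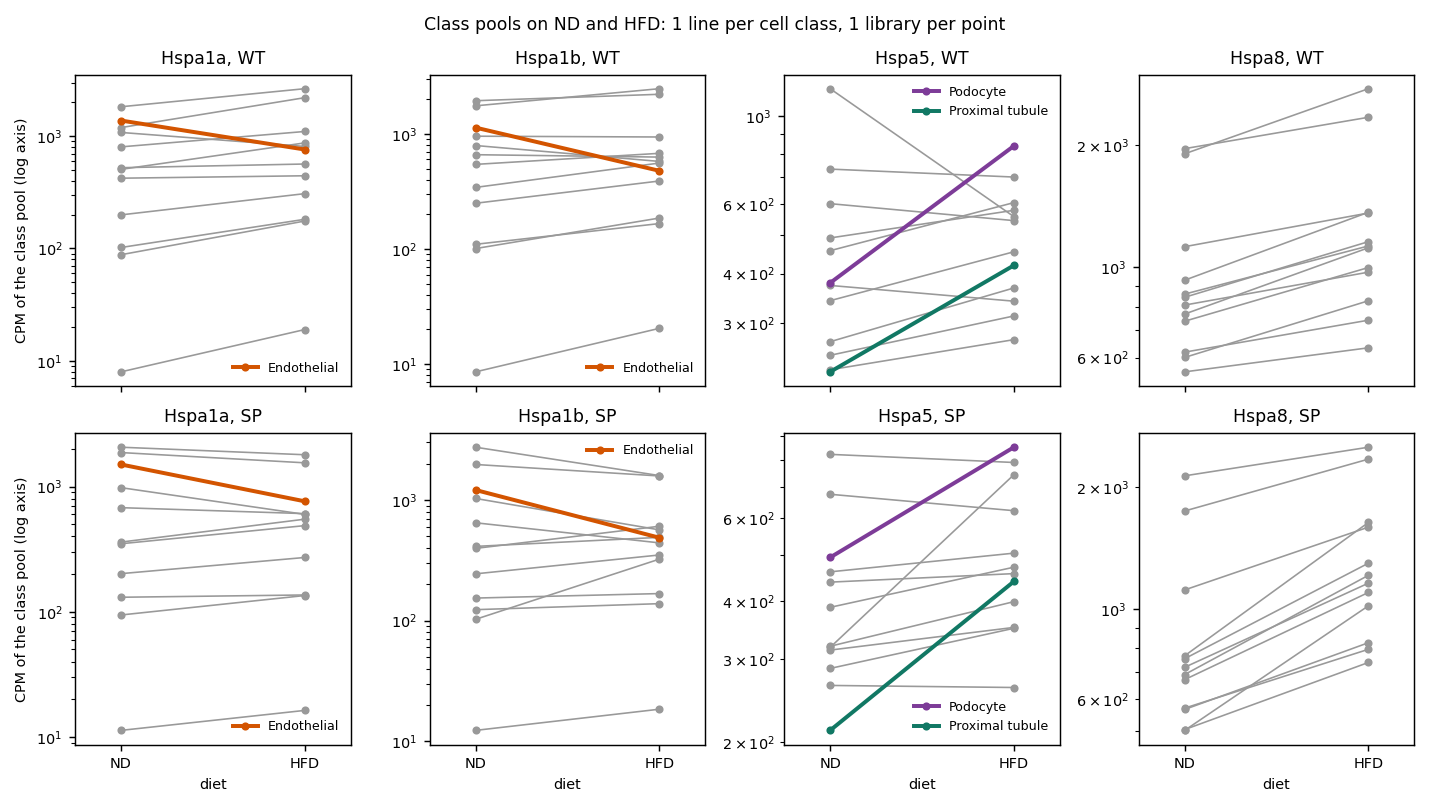
Each line joins the pooled CPM (log axis) of 1 cell class on ND and on HFD, for Hspa1a, Hspa1b, Hspa5 and Hspa8 in WT (top) and SP (bottom), 1 library per point. Endothelial cells (orange) slope down for Hspa1a and Hspa1b, podocytes (purple) and proximal tubule cells (green) slope up for Hspa5, and every line of Hspa8 slopes up.

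Hspa5, which holds unfolded proteins in the endoplasmic reticulum and keeps its stress sensors silent, was higher on HFD by at least 1.5-fold in proximal tubule cells and podocytes of both genotypes. The only other class past that fold upward was neutrophils, compared in SP alone, at 318 and 743 CPM on 31 and 62 UMIs. Proximal tubule cells had 226 CPM in WT-ND and 420 CPM in WT-HFD, and 212 CPM in SP-ND and 440 CPM in SP-HFD. Podocytes had 379 and 840 CPM in WT and 495 and 851 CPM in SP. In both classes the HFD libraries of the genotypes lay close to each other and above both ND libraries.

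The proximal tubule difference was present in both clusters of that class. In the cluster led by Slc5a12, Slc5a2 and Slc6a19, genes of the early segments, the ratios were 0.96 in WT and 1.03 in SP. In the cluster led by Slc7a13, Cyp2a4 and Slco1a1, of which Slc7a13 marks the late segment, they were 0.84 and 1.08. Among the other classes, distal convoluted or connecting tubule cells were at 229 to 273 CPM of Hspa5 and macrophages, monocytes or dendritic cells at 701 to 822 CPM. Thin limb cells of WT-ND stood apart at 1171 CPM, against 557 to 675 CPM in the other libraries, so that the WT ratio there was -1.07, and WT-ND also had the highest early response sum in that class. Dnajb1 in thin limb cells was likewise at 166 CPM in WT-ND and at 72.3 to 91.8 CPM elsewhere.

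Other genes of the endoplasmic reticulum differed in direction. Of 22 listed genes of its chaperones and unfolded protein response, 5 were at least 1.5-fold higher on HFD in WT over all kept cells (Sdf2l1, Ddit3, Creld2, Herpud1 and Manf) and 5 in SP (Xbp1, Ddit3, Sdf2l1, Creld2 and Manf), and none was lower, where 3.08% and 4.07% of all genes were 1.5-fold higher. In all, 15 of the 22 had a ratio above 0 in WT and 19 in SP, beside 47.6% and 60.9% of all genes. The list median was 0.27 in WT and 0.31 in SP. Canx, a lectin chaperone of the endoplasmic reticulum membrane, was at 298 and 237 CPM in WT and at 288 and 241 CPM in SP, and was higher on HFD in 1 of 12 and 1 of 11 classes. Manf, a secreted protein of the endoplasmic reticulum, was at 74.8 and 139 CPM in WT and at 75.6 and 155 CPM in SP, and was higher on HFD in 11 of 12 and 10 of 11 classes.

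Cytosolic and mitochondrial chaperones outside the members were followed in the same way. Of 32 tested genes of the HSF1 programme and cytosolic co-chaperones, Dnaja4 was higher and St13 lower in WT, and Ahsa2, Dnaja4, Fkbp5 and Dnaja1 were higher in SP, with list medians of 0.12 and 0.22 and 26 and 27 genes above 0. For this and the following lists, 3.08% of all genes were 1.5-fold higher in WT and 4.07% in SP. Lower by that fold were 2.92% and 2.68%, and 47.6% and 60.9% had a ratio above 0. Dnaja1, another Hsp40, was higher on HFD in 12 of 12 classes in SP, at 256 and 407 CPM over all kept cells. None of the 8 subunits of the chaperonin TRiC passed 1.5-fold in either genotype. Of 10 mitochondrial chaperones and proteases, Clpx, the unfoldase of the ClpXP protease, was lower in both, at 135 and 58.2 CPM in WT and at 97.7 and 56.2 CPM in SP, and the list medians were -0.21 and -0.04. Hspd1, the partner of Hspe1, was at 317 CPM in WT-ND and 262 CPM in WT-HFD, while Hspe1 was higher in WT-HFD. Of 7 further small heat shock proteins only 1 reached the minimum of 10 CPM, and it did not pass. Of the 23 early response genes, Klf2, Gadd45g, Ier3 and Nr4a1 were higher and Mt2 lower on HFD in WT, and Klf2 and Ier3 were higher and Egr1 lower in SP.

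Cryab, which keeps proteins from aggregating and is abundant in cells under osmotic load, was dominated by thin limb cells. They had 7463 and 9336 CPM in WT on ND and HFD, and 7728 and 10929 CPM in SP. The next class, podocytes, had 505 to 883 CPM, and proximal tubule cells had 6.54 to 28.5 CPM. The thin limb range was thus far above that of any other class. Thinned to 1000 UMIs, 92.6% to 96.7% of thin limb cells held a Cryab UMI.

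Cryab was the only member that met the rule for a shift across the whole library in WT mice, where 0.593% of 9954 genes were shifted upward. It was higher on HFD in 11 of 11 classes with a median of 1.07. That median was the value of proximal tubule cells, whose Cryab is read below neither as expression nor as a difference. B or plasma cells and macrophages, monocytes or dendritic cells, whose shares overlapped the T or NK gauge given below, were also among the 11. In SP mice Cryab was higher in 8 of 11 classes with a median of 0.37. The WT shift was unequal: thin limb cells had a ratio of 0.32, while distal convoluted or connecting tubule cells were at 17.5 and 107 CPM, endothelial cells at 99.4 and 474 CPM and macrophages, monocytes or dendritic cells at 15.9 and 76.3 CPM. B or plasma cells had 3 UMIs of Cryab in WT-ND and 148 in WT-HFD. Endothelial cells of SP-ND, at 360 CPM, were also well above WT-ND. In both of these libraries their share of thinned cells with a UMI lay within the T or NK interval. Their mean of thinned UMIs per cell was higher, at 0.261 against 0.024 in T or NK cells of SP-ND. In WT-ND the means were 0.090 and 0.016. The share and the mean thus differed, and the part of RNA from other cells was not tested.

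T or NK cells, which should lack Cryab, served as a gauge of RNA from other cells. They had 12.4 to 30.2 CPM, and 1.64% to 3.29% of their thinned cells held a UMI. In proximal tubule cells the share was 0.811% to 2.85%, within the T or NK interval of the same library, so it is read neither as expression nor as a difference. Their cluster led by Slc5a12 was at 51.8 CPM in SP-ND, on 336 UMIs, and at 15.2 CPM in SP-HFD, and the other at 6.87 and 15.6 CPM. In distal convoluted or connecting tubule cells it was 2.01% in WT-ND and 10.9% (8.64% to 13.5%) in WT-HFD, and 2.73% and 2.64% in the SP libraries, and in WT-HFD T or NK cells had 3.29% (1.08% to 7.51%). Macrophages, monocytes or dendritic cells of WT-HFD were at 7.59% (4.93% to 11.1%), which overlapped the T or NK interval. B or plasma cells of WT-HFD were at 10.3% (7.23% to 14.2%), which also overlapped the T or NK interval and was near the distal share. Both this share and that of macrophages, monocytes or dendritic cells lay above the upper end of the T or NK interval. Of these low-level classes, only the distal class of WT-HFD had an interval above that of T or NK cells. It did not stand apart from B or plasma cells. Endothelial cells, at a higher CPM, had shares of 3.58% in WT-ND and 6.36% in SP-ND, each within the T or NK interval of that library. In WT-HFD they were at 9.83% (7.71% to 12.3%), above the T or NK interval. In SP-HFD they were at 7.21% (5.68% to 8.99%), which overlapped the T or NK interval (1.31% to 6.56%). Median depths were 4757 to 6768 UMIs in the distal class, 9432 to 15433 UMIs in proximal tubule cells and 1575 to 2861 UMIs in T or NK cells. The gauge may thus not hold alike for classes of other depth, which was not tested.

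**Figure D4:**
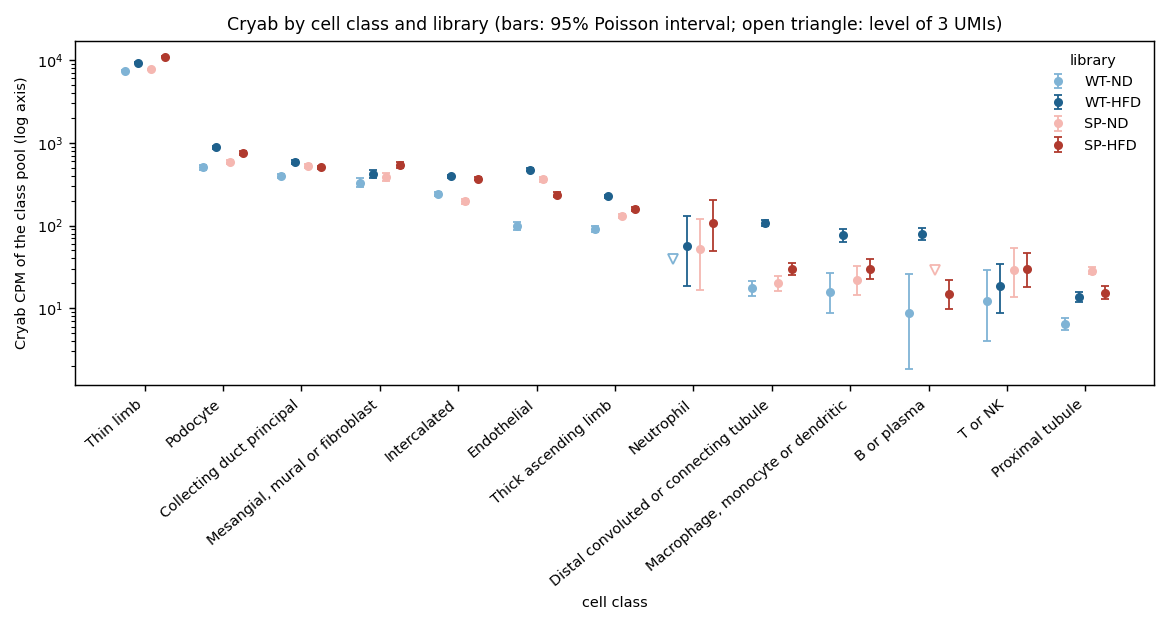
Points are pooled Cryab CPM (log axis) in each cell class, coloured by library, with 95% Poisson intervals; an open triangle marks the level of 3 UMIs where fewer were counted. Thin limb cells lie between 7463 and 10929 CPM, and WT-HFD (dark blue) is above the other libraries in distal convoluted or connecting tubule cells, macrophages and B or plasma cells.

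The classes differed far more than the libraries, with 77.1% of the spread between classes for Hspa5 and 96.9% for Hspb1. This was not particular to the members, since the median over all genes was 89.9%. Hspb1 was highest in endothelial cells, at 1615 to 2322 CPM, and in mesangial, mural or fibroblast cells, at 1074 to 1692 CPM, among classes of at least 50 cells, and these ranges overlapped. Hspa1a was highest in macrophages, monocytes or dendritic cells, at 1796 to 2644 CPM, and in T or NK cells, at 1192 to 2199 CPM, which overlapped as well. T or NK cells also had the highest Dnajb1, at 540 to 1090 CPM, and high Hsp90aa1, at 1606 to 2924 CPM.

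Proximal tubule cells were the reverse, with 7.98 to 19.0 CPM of Hspa1a, 3.79 to 11.5 CPM of Hspb1 and 12.5 to 21.4 CPM of Dnajb1. Their Hspa8 and Hspe1 were not low, at 768 to 1635 CPM and 407 to 533 CPM, each at rank 4 of 14 classes by mean level. By the same measure they were at rank 10 for Hsph1, 11 for Hspa5 and 14 for Hsp90aa1. Proximal tubule cells were also the class in which Hsp90aa1 was lower on HFD in both genotypes by the most, at 457 and 302 CPM in WT and 513 and 376 CPM in SP.

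Hspb1 in macrophages, monocytes or dendritic cells was at 93.3 CPM in WT-ND and 299 CPM in WT-HFD, and at 106 and 286 CPM in SP. These were the largest diet ratios of Hspb1 in either genotype, at 1.68 and 1.43. Of thinned cells of this class, 5.32% in WT-ND and 10.1% in WT-HFD held an Hspb1 UMI. In SP-ND and SP-HFD the shares were 4.74% and 9.07%. The WT-ND share and both SP shares lay within the T or NK interval of the same library. The WT-HFD interval (7.03% to 14.0%) overlapped that of T or NK cells (1.87% to 9.26%). The part of RNA from other cells in these Hspb1 values was not tested. Over classes Hspb1 had a median of 0.82 in WT and 0.48 in SP and was lower on HFD in 2 classes of each genotype.

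The cluster chosen for the HFD-associated proximal tubule cells differed from proximal tubule cells of the same WT-HFD library in the members low in the latter. Markers of the HFD-associated cells had a mean log2 ratio of -0.11 to the other cells in it. Cryab was at 568 CPM against 13.7 CPM, Hspb1 at 230 against 11.5 CPM, Hspa1a at 284 against 19.0 CPM and Hspa1b at 218 against 20.5 CPM. Hspa8, Hspa5, Hspe1 and Hsph1 were slightly lower than in proximal tubule cells, with log2 ratios of -0.12 to -0.40. For Cryab, Hspb1 and Hspa1a the cluster lay below the pooled level of the other named classes of that library, at 705, 409 and 630 CPM, and the part of RNA from those classes was not tested.

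The genotype comparisons share their libraries with the diet comparisons. On ND, 7 of 10 members were higher in SP, beside 68.3% of all genes, with a median of 0.17 beside 0.09 over all genes. None passed 1.5-fold higher (2.55% of 8259 genes) or lower (3.17%). None was shifted across the library (0.142% of 9837 genes upward and 1.32% downward). On HFD, 8 of 10 were higher in SP, beside 79.1% of all genes, with a median of 0.11 beside 0.17. Both counts of higher members were thus near the share over all genes. Within classes, 63 of 112 member values were above 0 on ND and 54 of 120 on HFD. On HFD with classes weighted equally, Hspa1b (-0.43), Dnajb1 (-0.33), Hspb1 (-0.13), Hsp90aa1 (-0.06) and Hsph1 (-0.04) went to lower in SP. Cryab on HFD went to -0.50 without thin limb cells. Again none passed 1.5-fold higher (2.75% of 8377 genes) or lower (3.44%), or was shifted across the library (0.141% of 9951 genes upward and 0.613% downward). No member was shifted downward across the library by diet, against 0.442% of genes in WT and 0.457% in SP.

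Single classes still differed between genotypes. In intercalated cells all 10 members were lower in SP-ND than in WT-ND, with ratios up to -0.004. Their median was -0.30 beside -0.08 over all genes, and Hspa1a was at 349 CPM against 506 CPM. In T or NK cells of HFD-fed mice 8 of 10 members were lower in SP, with a median of -0.45 beside -0.08 over all genes. Hspa1a there was at 1548 CPM against 2199 CPM. On ND the sign in T or NK cells was the opposite. There 9 of 9 members tested were higher in SP, with a median of 0.28 beside 0.09 over all genes. The share of all genes higher or lower in these classes is not given, so the counts are not read as particular to the members. Podocyte Hspa1a was at 600 CPM in SP-HFD and 1100 CPM in WT-HFD. Of the member values within classes, 10 of 119 were particular to a class in the WT diet comparison, beside 4.43% of the values of all genes, and 7 of 114 in the SP diet comparison, beside 2.85%. In the genotype comparisons these were 3 of 112 on ND (2.48% of all) and 3 of 120 on HFD (3.91%), and all 6 were Cryab except Dnajb1 in thin limb cells. The values of all genes are those of genes tested in at least 6 classes, and rest on as few as 20 UMIs.

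The members also varied with the mitochondrial share of a barcode. Bins under 50% held kept cells only, while the bin of 50% or more held every deposited barcode with that share, without the other filters. As CPM with mitochondrial UMIs left out of the total, Hspa1a was at 916 to 1392 in barcodes with under 10% mitochondrial UMIs and at 110 to 200 in those with 50% or more. Cryab, Hspb1, Hspa1b and Dnajb1 were also lower at each step of mitochondrial share in every library. Hspa8 was nearly level, at 1223 to 1590 in the lowest bin and 966 to 1728 in the highest, and both HFD libraries lay above both ND libraries in every bin. In the lowest bin Hspa1a was higher in SP-ND (1392) than in SP-HFD (916), and between 30% and 50% it was lower (159 and 239). Bins differ in which classes they hold. In endothelial cells, from under 10% to 10% to 30%, Hspa1a went from 1634 to 1329 in WT-ND. It went from 847 to 792 in WT-HFD, from 1753 to 1421 in SP-ND and from 859 to 770 in SP-HFD. From that bin to the one of 30% to 50%, proximal tubule Hspa1a was lower in WT-HFD (29.5 to 27.6) and SP-ND (32.5 to 13.2). It was higher in WT-ND (10.1 to 13.5) and SP-HFD (20.5 to 26.8). The part of the classes in the steps and in the diet values was not tested.

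**Figure D5:**
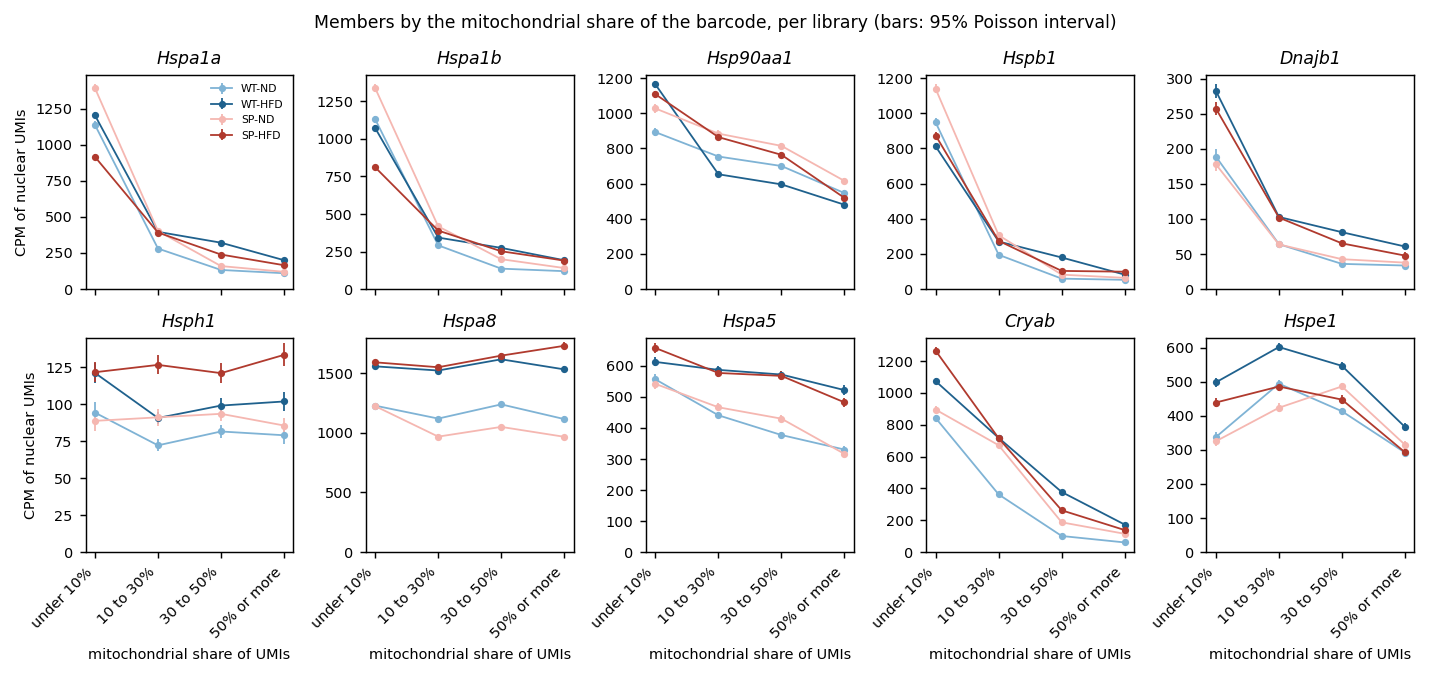
Points are each member's CPM, with mitochondrial UMIs left out of the total, in 4 bins of the barcode's mitochondrial share (linear axis from 0), 1 line per library, with 95% Poisson intervals. Hspa1a, Hspa1b, Hspb1, Dnajb1 and Cryab decline from left to right, and the HFD lines of Hspa8 lie above the ND lines throughout.

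Over the 44 pools of 11 classes and 4 libraries, Hspa1a and Hspa1b had a Pearson correlation of 0.99. As a description, since pools of a library share their depth and handling, the genes of most similar pattern were Jun (0.93), Rpl21 and Srsf3 (both 0.91) for Hspa1a and Tpd52l2 (0.94) for Hspb1. They were Tns3 (0.90) for Cryab, and Manf (0.83), Atg3 and Ddit3 (both 0.80) for Hspa5. Hspe1 and Hspa8 were at 0.81, while Hspe1 and Cryab were at -0.53.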

How the data were processed

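Single-cell RNA-Seq of whole mouse kidney, in 4 libraries with 1 per condition, was used. The authors deposited raw UMI counts per gene and barcode (3′ v3.1 kit), made with Cell Ranger and not normalized, for the mm10 genome per the submitters' processing notes. The Cell Ranger version is 2.1.1 in the submitters' notes and another in the study's methods. All barcodes held at least 500 UMIs (93142028, 115117649, 111617794 and 90728590 UMIs in WT-ND, WT-HFD, SP-ND, SP-HFD) and variation between animals was not measured.

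Cells with 200 to 5000 genes and under 50% mitochondrial UMIs were kept, and 0.8% of cells per 1000 cells were removed as doublets by similarity to simulated doublets. Libraries were integrated by CCA (2000 features, 50 dimensions) and clustered at resolution 0.5 in Seurat 5.3.0 (R 4.3.3), leaving out the members and listed chaperone and early response genes. Clusters were named from marker lists, with thresholds set after the clusters were seen, and 10 of 36 stayed unnamed, among them a shallow cluster with globin and proximal tubule RNA. UMIs were pooled by class and library as CPM with exact Poisson intervals, and log2 ratios had exact binomial intervals (Python 3.11.15, SciPy 1.17.1). Ratios over all kept cells used genes with a mean of at least 10 CPM. Shares used cells thinned to 1000 UMIs. The procedures were tested on simulated counts. Genes were named if they were members, the extremes of a fixed list, or the nearest in pattern. Promoters came from RefSeq (GRCm38.p6) and transcripts from GENCODE M21. The members and lists were chosen with earlier results of these data known. The alternatives tried were other totals, filters, weights, clusterings and background corrections. The gene of most similar pattern to Hspe1 is not reported here.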

Additional observations from a re-analysis of the deposited data

Results flagged for a closer look

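Cryab had diet ratios of opposite sign in the 2 genotypes in 2 classes, each at least 1.5-fold, and with 1 library per condition the difference was not tested. In endothelial cells the log2 ratio of HFD against ND was 2.25 in WT and -0.61 in SP, with levels of 99.4 and 474 CPM in WT and of 360 and 236 CPM in SP. Of thinned endothelial cells, 3.58% and 9.83% held a UMI in WT and 6.36% and 7.21% in SP. The SP share was thus not lower on HFD. Both ND shares lay within the T or NK interval of their own library, and in SP-HFD the intervals overlapped. The mean of thinned UMIs per endothelial cell was 0.261 in SP-ND and 0.187 in SP-HFD, so it was lower on HFD while the share was not. The SP sign was not shared by all 4 endothelial clusters: the ratio was -1.23 and -1.76 in those led by Esm1 and Ccl21a, and 1.78 and 0.09 in those led by Ehd3 and Slc14a1. In proximal tubule cells it was 1.07 in WT and -0.89 in SP, on levels of 6.54 and 13.7 CPM in WT and of 28.5 and 15.4 CPM in SP, where the share of thinned cells with a UMI was within the T or NK interval of each library. The negative SP value came from the cluster led by Slc5a12 (-1.77), while that led by Slc7a13 had a ratio of 1.19 in SP and 1.50 in WT.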

How the results depend on the processing

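Among 400 member ratios under 10 alternatives, 50 belonged to values of at least 1.5-fold and all 50 stayed above 0, but 7 were no longer 1.5-fold, while 37 of the others changed sign, most of them near 0. The diet ratios were above 0 in 190 of 200. These 7 were Dnajb1 (0.44) and Hspa8 (0.57) in SP and Cryab in WT (0.45) and SP (0.44) with classes weighted equally, and Cryab in SP with cells under 30% mitochondrial UMIs (0.40), all deposited barcodes (0.52) and without thin limb cells (0.11). The counts of members were within 1.5 times the reported ones under most alternatives. In SP mice the members higher on HFD by 1.5-fold went from 3 to 0 with classes weighted equally, and those shifted across the library from 1 to 0 with nuclear UMIs as the total. SP-ND against WT-ND had 2 members 1.5-fold higher instead of 0 with cells under 30% mitochondrial UMIs, 1 with all deposited barcodes, and 1 without thin limb cells, an alternative chosen after seeing the data. The causes were not tested. Also chosen after seeing the data, each endothelial cluster on its own gave Hspa1a diet ratios above 0 in the cluster led by Ccl21a (0.27 in WT and 0.22 in SP) and in that led by Esm1 in SP (0.023). Cryab in SP, by cluster, was above 0 in the endothelial clusters led by Ehd3 (1.78) and Slc14a1 (0.090) and in the proximal tubule cluster led by Slc7a13 (1.19). No paired analysis was possible because each condition has 1 library. Low UMI counts limit Cryab and Hspb1 in proximal tubule and immune cells, and 1 library per condition limits every comparison of diets and genotypes.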

Other observations

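Neutrophils were compared by diet only in SP mice, since WT-HFD held 40 of them. In 60 cells of SP-ND and 56 cells of SP-HFD, Hsp90aa1 was at 287 CPM (28 UMIs) and 803 CPM (67 UMIs), Hspa5 at 318 CPM (31 UMIs) and 743 CPM (62 UMIs), and Hspa1b at 103 CPM (10 UMIs) and 324 CPM (27 UMIs). The log2 ratios were 1.48 (0.83 to 2.17), 1.22 (0.58 to 1.89) and 1.66 (0.57 to 2.87), and these intervals leave out differences between cells. Of thinned neutrophils, 7.69% in SP-ND and 9.80% in SP-HFD held an Hspa1b UMI. For Hspa5 the shares were 34.6% and 35.3%. The intervals of the shares overlapped for both genes, so detection did not differ as the levels did.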
